A study of Canis lupus familiaris with 8 samples.

Results

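The miRNAs described here are the 114 probed names of the murine listing that carry a number from 1000 to 1999, with any letter, arm or star after the number. They were taken from the scanner files by name alone and make up 114 of the 1224 miRNA names on the array, beside 821 other murine and 289 canine names. Each name was printed as 40 features. Serum RNA of 8 client-owned Doberman Pinschers, 7 to 11 years old per the labels (a range that the study's account of the single dogs does not match in full), was hybridized to 8 one-colour arrays of 1 slide, 1 dog per array. The 4 dogs labelled DoCM5 to DoCM8 had dilated cardiomyopathy (DCM) in its occult stage and, per the methods, were under medication with pimobendan, an ACE inhibitor and an antiarrhythmic drug. The 4 dogs labelled Con1 to Con4 were healthy, so that disease and medication cannot be told apart, and the row of the slide was one for DCM and the other for control arrays, which leaves row and disease inseparable too. The study compared these groups to find circulating miRNAs that differ in canine DCM. A serum level does not tell fewer releasing cells from less RNA per cell.

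MicroRNAs are short RNAs that are cut from a hairpin precursor by Drosha and Dicer and, within an Argonaute protein, lower the translation or the stability of messenger RNAs with matching sites. The number in a miRNA name follows the order of its description, so that murine names of this range were mostly added in the era of deep sequencing, and many of them have been described in rodents only. A probe for such a name therefore reports hybridization of canine serum RNA to a murine sequence, with or without a canine counterpart. A few belong to known loci: miR-1224 is a mirtron, a hairpin released by splicing of a short intron without Drosha, miR-1188, miR-1193, miR-1197 and miR-1247 lie in the imprinted Dlk1-Dio3 region, miR-1264, miR-1298 and miR-1912 lie in an intron of the serotonin receptor gene Htr2c, and miR-1306 lies in the transcript of Dgcr8, the partner of Drosha.

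Features that the scanner software called well above background on 2 or more of a group's 4 arrays were kept, and a name with at least 1 kept feature was taken as detected. Of the 114 names, 34 (29.8%) were detected. The share was 30.2% (248 of 821) among the other murine names and 54.0% (156 of 289) among the canine names. Within the murine listing the shares were 28.5% for numbers 0 to 999, 28.3% for 2000 to 3999 and 63.4% for 5000 to 5999, where 41 names were printed. The range was itself uneven: 6 of 32 names from 1186 to 1306 were detected, 0 of 5 from 1839 to 1843, 9 of 20 from 1892 to 1912, 18 of 52 from 1927 to 1971 and 1 of 5 from 1981 to 1983. All 40 features were kept for 19 of the 34 names and at least 50% of them for 26, whereas mmu-miR-1935 and mmu-miR-1968 rested on 3 features and mmu-miR-1950 on 1.

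On single arrays, 697 to 1117 of the 4560 features of the 114 names were well above background. The DCM arrays had 796 (DoCM5), 1006 (DoCM6), 697 (DoCM7) and 826 (DoCM8), and the control arrays had 922 (Con1), 869 (Con2), 1117 (Con3) and 854 (Con4). As a share of features the DCM arrays had 18.2% ± 2.83 (SD, n = 4) and the control arrays 20.6% ± 2.66 (SD, n = 4), with overlapping groups. At least 50% of a name's features were well above background for 17 to 29 names per array, fewest on DoCM7 and most on Con3. By this measure 16 names were above background on all 8 arrays and 83 on none, with the other 15 on 1 to 7 arrays. With the kept features alone, where 50% or more of them had to pass on an array for the name to count there, 17 of the 34 detected names were above background on all 8 arrays, 8 on 4 to 7 arrays and 9 on 1 to 3 arrays.

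**Figure D1:**
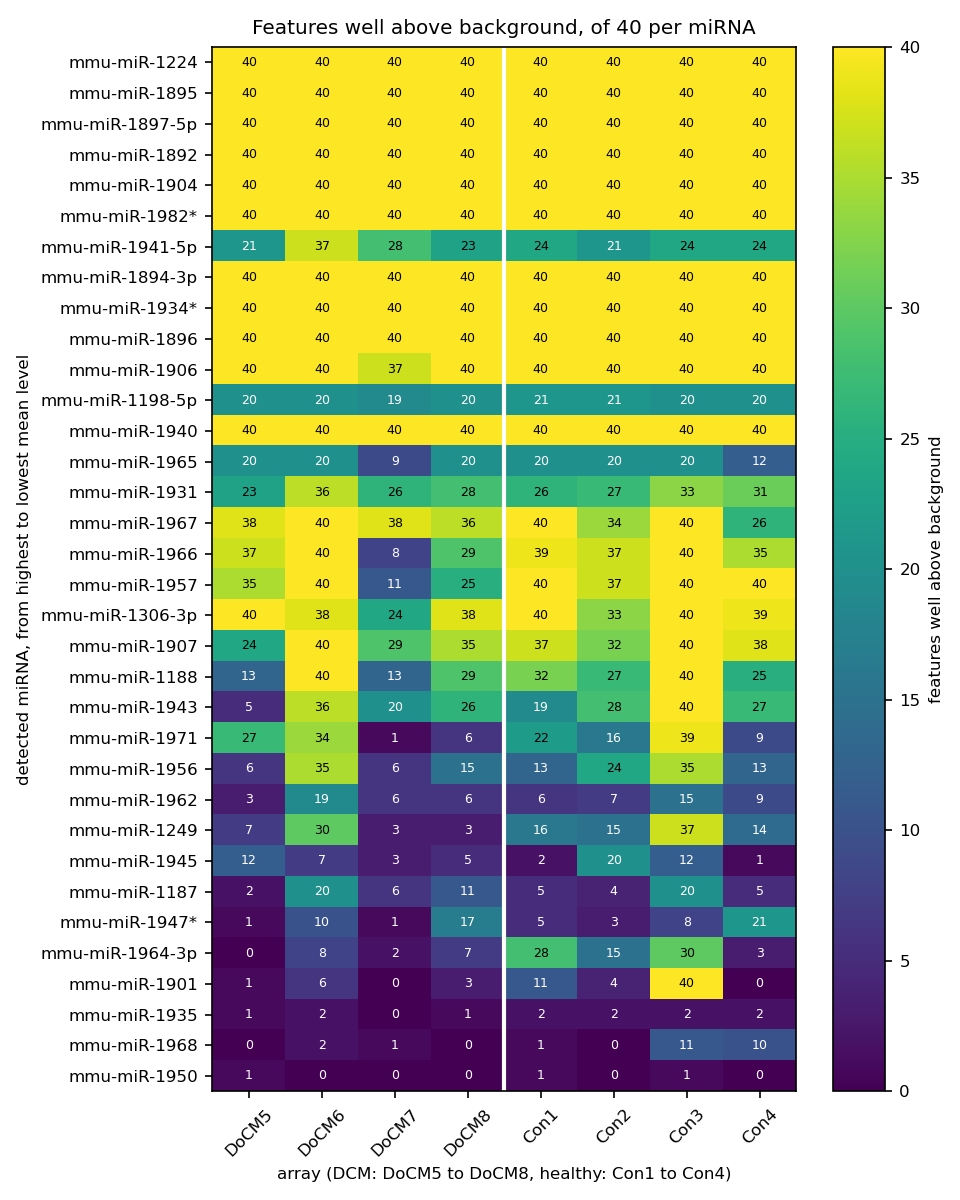
Number of features well above background, of 40 printed, for the 34 detected murine names numbered 1000 to 1999 (rows, ordered by mean normalized level) on the 4 DCM and the 4 control arrays (columns). The 12 brightest rows hold 37 to 40 features on each array, except mmu-miR-1941-5p with 21 to 37 features and mmu-miR-1198-5p with 19 to 21, while mmu-miR-1950 at the bottom has 1 feature on 3 arrays.

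The 80 names that were not detected stayed near the level of the negative control features. Between 0.0625% and 1.56% of their 3200 features per array were well above background, against 0.1% to 0.7% of 1000 negative control features, and the highest share was that of Con3. Of these names, 25 were at no time above background on any feature of any array, 31 had 1 such feature on 1 array and 23 had 2 to 9 over the 8 arrays. The exception by number of features was mmu-miR-1960, named here, as are the next names, after its values were seen. It had 28 of 40 features well above background on Con3, with a mean signal of 7.75, and 0 or 1 feature on the 7 other arrays, with mean signals from 1.45 to 4.07. A name with such a signal in a single dog could not pass the filter. Single bright features were also seen. mmu-miR-1195 had a mean signal of 211 on DoCM8 from 1 feature of 8428, with a median over its features of 0.656, and mmu-miR-1897-3p had 123 on DoCM6 from 1 feature of 4797, with a median of 3.05. Both features were flagged as outliers by the scanner software.

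By form of the name, 25 of 73 names without an arm, 3 of 11 with -5p, 3 of 13 with -3p and 3 of 17 starred names were detected. A starred name is the older notation for the less abundant arm of a hairpin. For 28 hairpins both arms were printed, and in no case were both detected: 1 arm was detected for 13 hairpins and none for 15. The detected arm was the starred one for mmu-miR-1934*, mmu-miR-1947* and mmu-miR-1982*. Of the known loci, mmu-miR-1224 was detected and mmu-miR-1224* was not, 1 of 8 names of the Dlk1-Dio3 region was detected (mmu-miR-1188), 0 of 6 names of the Htr2c intron were, mmu-miR-1306-3p was detected on 40 kept features, and mmu-miR-1983, a name assigned to a fragment of a tRNA, was not.

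For 10 of the 114 names the dog gene table (assembly UU_Cfam_GSD_1.0) held a miRNA gene of the same number, and 2 of these 10 names were detected, mmu-miR-1249 with 30 and mmu-miR-1306-3p with 40 kept features, against 32 of the 104 others. The canine listing held 13 names numbered 1000 to 1999, 10 of which were detected. The number 1306 was detected in both listings, with 20 kept features for cfa-miR-1306. The number 1839 was detected as cfa-miR-1839, with 20 kept features, and not as mmu-miR-1839-3p, and the number 1843 was detected in neither listing. The canine names give no arm, so that they were not matched further.

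The features of a name belonged to 2 probes for 105 names, 3 probes for 8 and 4 probes for 1, and the 9 names with more than 2 probes were all not detected. Of the 34 detected names, 28 had kept features in both probes and 6 in 1 probe only. The brighter probe had less than 2 times the mean signal of the other for 24 names. For mmu-miR-1982* the mean signals were 99.4 and 97.5. For mmu-miR-1224 they were 3199 and 308, each well above background on every feature of all 8 arrays. For mmu-miR-1941-5p they were 122 and 5.86, for mmu-miR-1198-5p 25.3 and 1.06, and for mmu-miR-1965 20.7 and 0.713. The order of the probes was the same on all 8 arrays for each of these 4 uneven names. In mmu-miR-1198-5p and mmu-miR-1965 the dimmer probe had no kept feature, so that their levels rest on 1 probe of 20 features.

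Most signals of the range were low. The median over its 4560 features lay between 0.803 and 1.16 intensity units per array, between 31.9% and 37.0% of the background-subtracted signals were below 0, and 0 features were saturated. The names carried 0.475% to 1.87% of the summed signal of an array. mmu-miR-1224 was the brightest on every array, with 40.5% to 64.8% of the signal of the range, and the 5 brightest names together had 70.3% to 85.0%. On DoCM8 these 5 include mmu-miR-1195 through its single outlier feature. Among the 34 detected names alone, the 5 brightest had 71.8% to 87.5% of the signal. The share of the range in the summed signal was lowest on DoCM5 and highest on DoCM6, both DCM arrays, and 1.04% to 1.32% on the control arrays.

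Levels after normalization are given as glog2, a scale that equals log2 for bright and is nearly linear for dim signals, as the mean over the kept features of a name. Over all 8 arrays the means of the 34 names ran from 1.14 (mmu-miR-1950) to 10.58 (mmu-miR-1224). Nearly all were in the lower part of the measured range: 2 names had a mean under 2, 19 between 2 and 4, 5 between 4 and 6, 6 between 6 and 8 and 2 above 8, and the median was 3.36, against 4.80 for the detected canine and 3.92 for the other detected murine names. Different probes bind differently, so that these are classes of signal and not amounts of RNA. Among all 438 detected names mmu-miR-1224 ranked 20, mmu-miR-1895 ranked 62 and mmu-miR-1897-5p ranked 75.

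For mmu-miR-1224 the values were 9.05 (DoCM5), 11.78 (DoCM6), 9.84 (DoCM7), 10.40 (DoCM8), 10.94 (Con1), 11.09 (Con2), 10.81 (Con3) and 10.72 (Con4). The control arrays lay close together, whereas the DCM arrays held both the lowest and the highest value. mmu-miR-1895 had a mean of 8.02 ± 0.54 (SD, n = 8) with its lowest value, 6.96, on DoCM5 and its highest, 8.61, on DoCM6. The same arrays held the extremes of mmu-miR-1897-5p (7.61 ± 0.57, SD, n = 8), of mmu-miR-1892 (7.35 ± 0.65, SD, n = 8) and of mmu-miR-1982* (6.49 ± 0.61, SD, n = 8). The values of mmu-miR-1904 were 5.87 on DoCM5 and 6.73 to 7.16 on the 7 other arrays. In mmu-miR-1941-5p, mmu-miR-1894-3p and mmu-miR-1934* the lowest array was again DoCM5, with 4.96, 4.66 and 3.89, and the highest was DoCM7, with 7.08, 6.80 and 5.50. mmu-miR-1896 ran from 3.97 on DoCM5 to 5.40 on Con2, mmu-miR-1906 from 3.50 on DoCM5 to 5.09 on Con3, and mmu-miR-1198-5p from 3.65 on DoCM8 to 5.26 on DoCM6. DoCM5 was thus the lowest array for 11 of the 12 brightest names and the highest for none. This order holds between scaled arrays: it was also 11 of 12 after quantile normalization and after scaling to the 75th percentile, whereas on the deposited signal, not scaled between arrays, DoCM5 was lowest for 1 and DoCM7 for 10 of the 12.

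**Figure D2:**
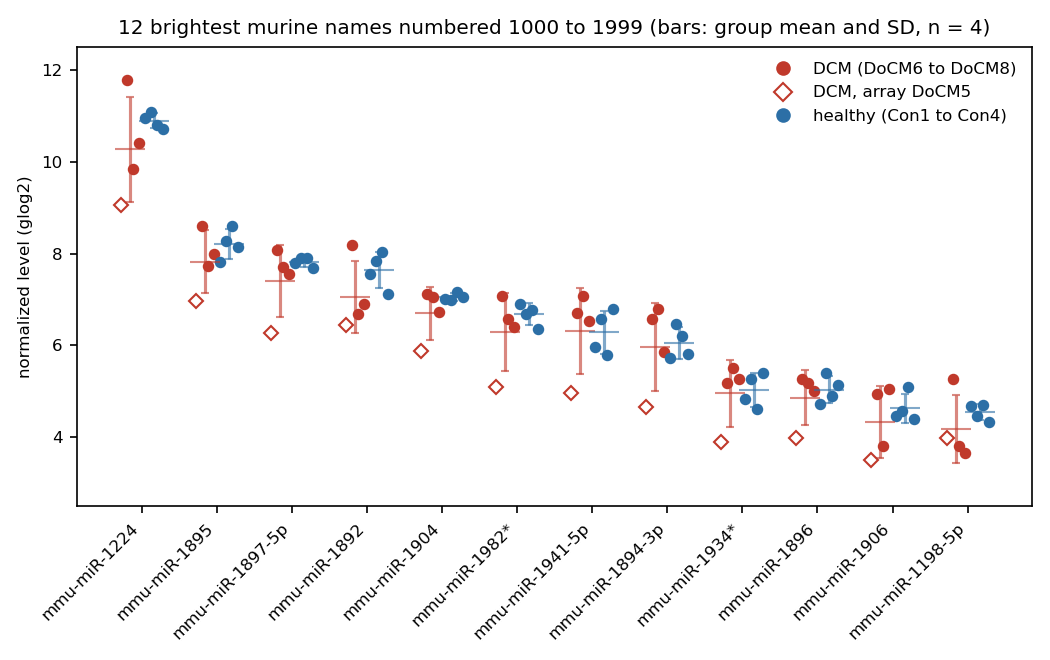
Normalized level (glog2) of the 12 brightest murine names numbered 1000 to 1999 on the 4 DCM arrays (red, DoCM5 as an open diamond) and the 4 control arrays (blue), with group means and SD (n = 4). DoCM5 is the lowest array for 11 of the 12 names, and the SD of the DCM arrays exceeds that of the control arrays for all 12.

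After normalization the array labelled DoCM5 stood apart for the brighter names of the range. Relative to each name's mean over the 8 arrays, the median deviation of the 34 names was -0.41 on DoCM5, 0.26 on DoCM6, 0.02 on DoCM7 and -0.13 on DoCM8, and -0.20, 0.28, 0.16 and 0.10 on Con1 to Con4. Among the 17 names above background on all arrays it was -0.98 on DoCM5, where 14 of the 17 had their lowest value. Of the other 17 names, 1 was lowest on DoCM5. The canine names moved the other way on this array, with a median deviation of 0.40 and the highest value of 77 of 156 names, while the other murine names had a median deviation of -0.22. On the deposited scale the 34 names had a median log2 signal that was 2.82 below that of the canine names on DoCM5 and 0.92 to 1.74 below it on the 7 other arrays. DoCM6 held the highest value for 11 of the 34 names and the lowest for none. The values of DoCM7 fell on both sides, with the highest value for 7 names (mmu-miR-1941-5p, mmu-miR-1894-3p, mmu-miR-1934*, mmu-miR-1940, mmu-miR-1931, mmu-miR-1962 and mmu-miR-1187) and the lowest for 4. On Con2, 31 of the 34 names were above their own mean. The names share arrays, labelling and normalization, so that these counts describe 8 arrays and not 34 independent measurements.

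**Figure D3:**
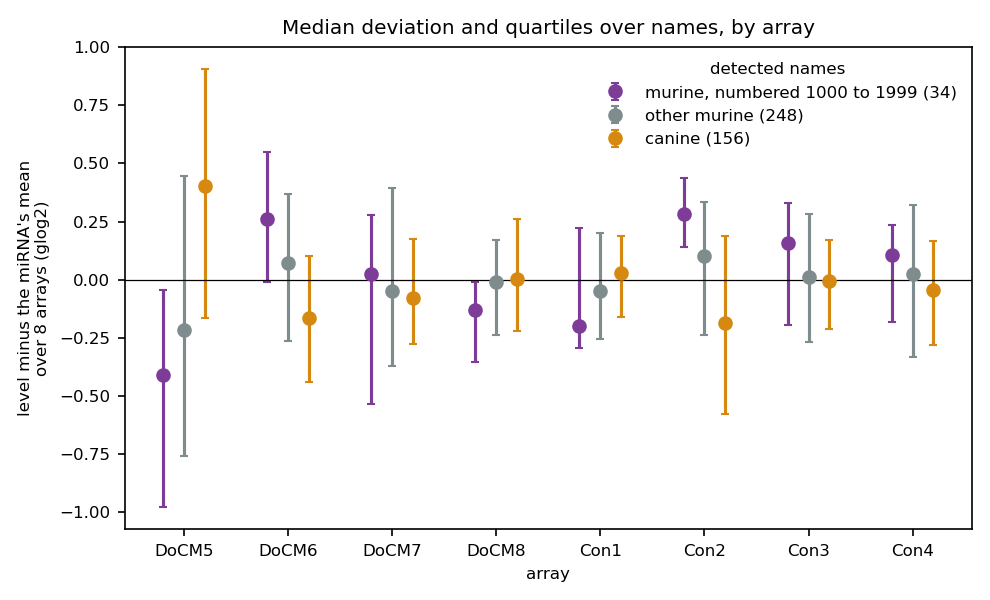
Median (point) and quartiles (bar) of the deviation of each detected name from its own mean over 8 arrays (glog2), by array, for the 34 murine names numbered 1000 to 1999, 248 other murine names and 156 canine names. On DoCM5 the names of the range lie at -0.41 and the canine names at 0.40.

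With DoCM5 included, the spread between dogs was wider in DCM. The median SD of the 34 names was 0.52 over the 4 DCM arrays and 0.33 over the 4 control arrays, and 0.79 against 0.31 for the 12 brightest. Without DoCM5, in a normalization of the other 7 arrays, the median SD of the 34 names was 0.24 in DCM (n = 3) and 0.29 in the control group (n = 4), and 0.40 against 0.29 for the 12 brightest. The SD was then larger in DCM for 15 of the 34 names and for 9 of the 12 brightest. With DoCM5 included, the widening was also seen over all detected names, with median SDs of 0.54 and 0.36 over the 8 arrays.

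DCM was compared with control in a limma fit of all 438 detected names over 7 arrays. The array labelled DoCM8 was left out, because the study names it as the one it removed. The median deviation over all detected names lay near 0 on each DCM array after normalization, but the quartiles ran from -0.60 to 0.62 on DoCM5 and from -0.23 to 0.18 on DoCM8. DoCM5 held the highest value of 135 and the lowest of 124 of the 438 names, against 27 and 26 on DoCM8. The removed array may carry another label in these files, and both sets are given. Of the 34 names of the range, 0 passed an unadjusted p under 0.05 together with a fold change over 1.5, and 0 had an unadjusted p under 0.05. Over all detected names 12 of 438 passed, 2.74%, of which 1.37% were lower in DCM. After Benjamini-Hochberg adjustment over the 438 names no name passed, 0.0%, and the smallest adjusted p was 0.997. The groups did not overlap for 2 of the 34 names, mmu-miR-1957 and mmu-miR-1964-3p, both lower in DCM, against 4.34% of all names and 1.6% for the lower direction. The median log2 fold change of the 34 names was -0.13, with a range from -1.28 to 0.45, a median standard error of 0.38 and lower values in DCM for 27 of them. Over all 438 names the median was -0.00 and 220 were lower. The difference exceeded its own standard error for 11 of the 34 names and 2 standard errors for 0. Over all 438 names this was so for 132 (30.1%) and 17 (3.88%). It was larger than the SD of both groups for 4 (mmu-miR-1187, mmu-miR-1957, mmu-miR-1964-3p and mmu-miR-1968). This last count was not taken over all 438 names, so that nothing about the range is read from it.

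The direction rested in part on DoCM5. Without it, and with DoCM8 in its place, the median log2 fold change of the 34 names was -0.04, 20 were lower and 14 higher. For the 12 brightest names the median was -0.42 with 12 of 12 lower in DCM over the first set of 7 arrays, -0.36 with 11 lower over all 8 arrays, and -0.03 with 7 lower and 5 higher without DoCM5. In the last set mmu-miR-1941-5p had a DCM mean of 6.63 ± 0.29 (SD, n = 3) against 6.15 ± 0.48 (SD, n = 4) in control. Its log2 fold change there was 0.48, with a standard error of 0.29 and a limma p of 0.127, where it was -0.06 with DoCM5 in place of DoCM8. Of its 31 kept features, 8 had passed the filter through the DCM arrays alone, which favours a higher value in DCM, and 1 through the control arrays alone. Over all 8 arrays 3 of the 34 names passed both limits, all lower in DCM, against 4.11% of all 438 names and 2.28% for the lower direction. These were mmu-miR-1950, mmu-miR-1957 and mmu-miR-1968. For mmu-miR-1950 and mmu-miR-1968 every kept feature had passed the filter through the control arrays alone, a selection that favours a lower value in DCM, so that their calls are no independent evidence of one. It was so for 3 of the 34 names, the other being mmu-miR-1901, while 0 names passed through the DCM arrays alone. Over all 438 names it was so for 23, and 5 passed through the DCM arrays alone. Without DoCM5, 2 of the 34 passed, mmu-miR-1950 and mmu-miR-1968, both lower, against 4.34% of all names and 2.51% for the lower direction. In that set the groups did not overlap for 5 of the 34 names, against 8.68% of all names. mmu-miR-1187 was higher in DCM, and mmu-miR-1950, mmu-miR-1957, mmu-miR-1964-3p and mmu-miR-1968 were lower, against 5.94% for the lower direction. The difference was over 2 standard errors for 5 of the 34 names there and for 3 over all 8 arrays. The same count over all 438 names was taken for the first set of 7 arrays only, so that nothing about the range is read from these counts. No adjusted p was under 0.05 without DoCM5 or over all 8 arrays. DoCM6 weighed the other way: with it left out from the first set, 3 names passed, all lower, where 30 of all 438 names passed, 25 of them lower. These were mmu-miR-1224 with a log2 fold change of -1.44 (limma p of 0.00315), mmu-miR-1892 with -1.07 (limma p of 0.0193) and mmu-miR-1906 with -0.97 (limma p of 0.0270), in a fit of 2 against 4 arrays. The 2 DCM arrays left were DoCM5 and DoCM7, and over all 8 arrays DoCM5 was the lowest for each of these 3 names. With DoCM5 or Con1 left out from the same set 1 name passed, mmu-miR-1968, where 29 and 11 of all names did. With Con2 or Con4 left out 1 name passed, mmu-miR-1950, where 10 and 13 of all names did.

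**Figure D4:**
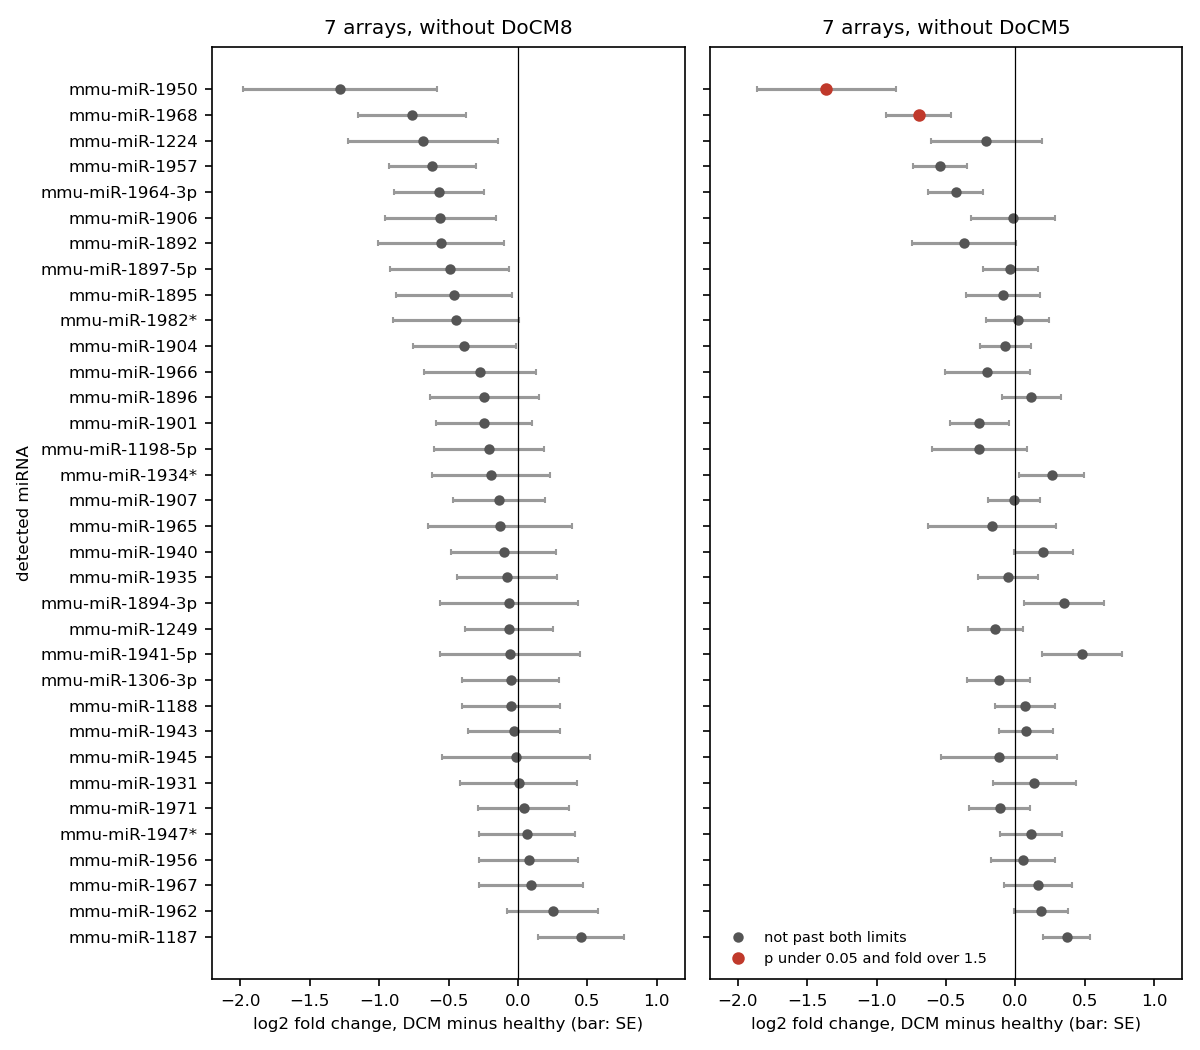
Log2 fold change (DCM minus control, bars show the standard error from limma) of the 34 detected murine names numbered 1000 to 1999, over the 7 arrays without DoCM8 (left) and the 7 arrays without DoCM5 (right), in the order of the left panel. On the left 27 names are below 0 and none passes both limits, on the right 20 are below 0 and mmu-miR-1950 and mmu-miR-1968, whose features were kept through the control arrays alone, pass (red).

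The values of mmu-miR-1957 over the first 7 arrays were 2.94 (DoCM5), 3.45 (DoCM6), 2.91 (DoCM7), 3.60 (Con1), 3.66 (Con2), 3.73 (Con3) and 3.87 (Con4). Every DCM array was below every control array on this normalized scale. On the deposited signal, not scaled between arrays, the groups overlapped, with 12.3 on DoCM6 and 10.3 on Con2. The DCM mean was 3.10 ± 0.30 (SD, n = 3) against 3.72 ± 0.12 (SD, n = 4) in control. The log2 fold change was -0.62 with a standard error of 0.31, a limma p of 0.0733 and an adjusted p of 0.997. The exact two-sided permutation test gave p = 0.0286, the smallest that 3 against 4 arrays allow. With DoCM8, at 2.75 in the normalization of all 8 arrays, the log2 fold change was -0.69 with a standard error of 0.26 (limma p = 0.0229, adjusted p = 0.956, exact two-sided permutation test p = 0.0286). Without DoCM5 it was -0.54 with a standard error of 0.19 (limma p = 0.0215, exact two-sided permutation test p = 0.0286), which is under the fold limit of 1.5. All 40 features were kept, and 11 of them were well above background on DoCM7, 25 on DoCM8, 35 on DoCM5 and 37 to 40 on the 5 other arrays, so that the lower values were near the detection limit. Both of its probes were measured, with mean signals of 13.7 and 10.7.

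For mmu-miR-1964-3p the values were 2.21 (DoCM5), 2.17 (DoCM6), 1.76 (DoCM7), 2.87 (Con1), 2.85 (Con2), 2.44 (Con3) and 2.30 (Con4). The groups did not overlap on this scale, and none of the DCM arrays but 3 of the 4 control arrays were above background. On the deposited signal, not scaled between arrays, the groups overlapped, with 5.08 on DoCM6 and 4.54 on Con4. Set against the lowest levels above background on the DCM arrays, its kept features gave a bound of 1.21-fold lower in DCM. The control mean in this bound includes Con4, which was not above background. The fitted difference, which takes the DCM levels at background as they are, was -0.57 on the log2 scale (standard error 0.32, limma p = 0.106, adjusted p = 0.997, exact two-sided permutation test p = 0.0571). Of its 27 kept features, 26 had passed the filter through the control arrays alone, which favours a lower value in DCM. The bound and the fitted difference are thus no independent evidence of one. With all 40 features and no filter the log2 fold change was -0.88, with a limma p of 0.0266. In that setting 44 of all 1224 names passed both limits, and this name was the 1 of the range. The DCM levels were near background there too. On DoCM5, DoCM6 and DoCM7, 0, 8 and 2 of the 40 features were well above background, against 28, 15, 30 and 3 on Con1 to Con4. On DoCM8 the level of mmu-miR-1964-3p was 2.15 in the normalization of all 8 arrays and again not above background. Its -5p arm was not detected.

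The pair mmu-miR-1968 and mmu-miR-1950, which passed both limits over all 8 arrays and without DoCM5, were the dimmest of the 34. The values of mmu-miR-1968 over the 8 arrays were 2.04 (DoCM5), 1.36 (DoCM6), 1.28 (DoCM7), 1.45 (DoCM8), 1.85 (Con1), 2.38 (Con2), 2.01 (Con3) and 3.08 (Con4), from 3 kept features. It was above background on Con3 and Con4 only, and the groups overlapped through DoCM5. No DCM array measured it. Set against the lowest levels above background on the DCM arrays, its kept features gave a bound of 1.11-fold lower in DCM over the 7 arrays without DoCM8. The bound was 1.08-fold over all 8 arrays and without DoCM5. Its control mean includes Con1 and Con2, which were not above background. The fitted differences of -0.76, -0.80 and -0.70 on the log2 scale rest on levels at background. All 3 features were kept through the control arrays alone, a selection that favours a lower value in DCM. Neither the bound nor the fitted differences are therefore evidence of a lower level. With all 40 features and no filter the log2 fold change over the 7 arrays without DoCM8 was -0.33, with a limma p of 0.426.

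The 8 values of mmu-miR-1950 were 1.55 (DoCM5), 0.18 (DoCM6), -0.06 (DoCM7), 0.07 (DoCM8), 2.84 (Con1), 1.02 (Con2), 3.28 (Con3) and 0.26 (Con4), from 1 kept feature of 40. High values were seen on Con1 and Con3 alone, the arrays on which the feature was above background, and the groups overlapped through DoCM5. Without DoCM5 they did not overlap. No DCM array was above background, so that the differences of the group means (-1.28 on the log2 scale over the 7 arrays without DoCM8, -1.41 over all 8 arrays) are no measured folds, and no bound above 1-fold could be given. The feature was kept because it was high on these control arrays, and over all 40 features the mean signal lay between -0.54 and 0.16 in DCM and between -0.32 and 0.20 in control. Over all its features and arrays 3 readings were above background, so that no direction can be read for this name.

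**Figure D5:**
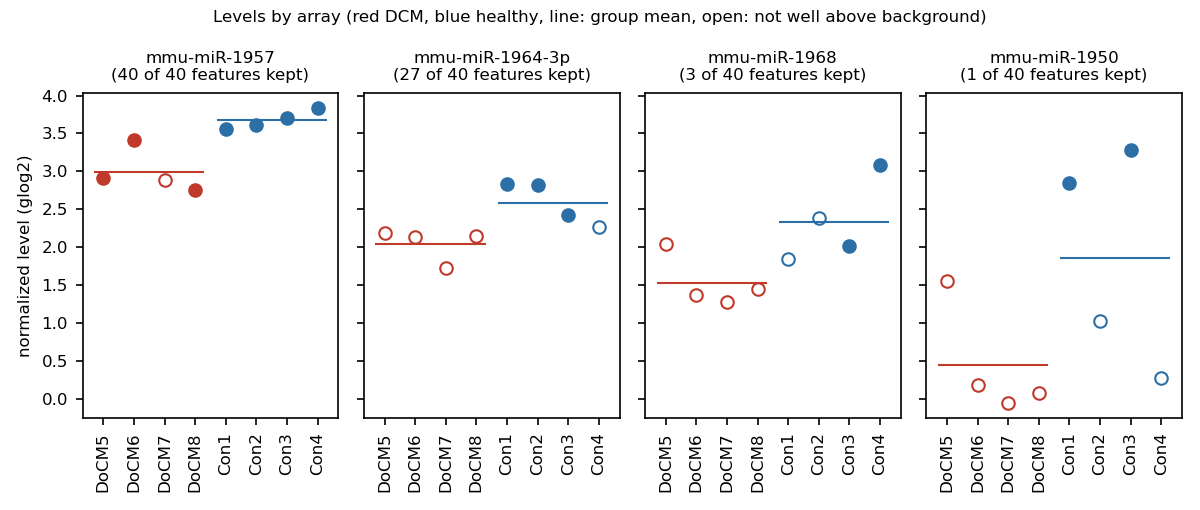
Normalized level (glog2, 8 arrays) of mmu-miR-1957, mmu-miR-1964-3p, mmu-miR-1968 and mmu-miR-1950 by array, DCM red and control blue, with group means as lines. Open circles were not above background: all DCM values of the last 3 names are open, while mmu-miR-1957 was above background on 3 of 4 DCM arrays and on all control arrays.

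The brightest name did not separate the groups. Over the 7 arrays without DoCM8 mmu-miR-1224 had a DCM mean of 10.25 ± 1.41 (SD, n = 3) against 10.93 ± 0.17 (SD, n = 4) in control. The log2 fold change was -0.69 with a standard error of 0.54 and a limma p of 0.231 (exact two-sided permutation test p = 0.343). It was lower in DCM in each of 21 alternative settings, with values from -1.59 to -0.07, and without DoCM5 it was -0.21 with a standard error of 0.40 (limma p = 0.614, exact two-sided permutation test p = 0.743). The name with the highest fold change of the range over the 7 arrays without DoCM8 was mmu-miR-1187. It had a DCM mean of 2.65 ± 0.19 (SD, n = 3) against 2.19 ± 0.18 (SD, n = 4) in control, with 1 array above background in each group. This was a difference of 0.45 on the log2 scale with a standard error of 0.31 and a limma p of 0.169. Of its 18 kept features, 10 had passed the filter through the DCM arrays alone, and with no filter the difference was -0.01. The 2 detected names with a canine gene of the same number did not pass the test, with log2 fold changes of -0.06 (standard error 0.32) for mmu-miR-1249 and -0.05 (standard error 0.35) for mmu-miR-1306-3p.

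Listings tied to cell types were also read. No level that would contradict the serum label was set in advance, so that they do not test it. The 4 erythrocyte and 6 leukocyte listings were all detected, from a mean of 16.94 for the erythrocyte miRNA cfa-miR-451 down to 2.71 for the leukocyte miRNA mmu-miR-155, the one of the 10 that was not above background on all 8 arrays. The 3 platelet and endothelium listings and the 1 liver listing were detected too. Of 5 heart and muscle listings, cfa-miR-133a, cfa-miR-208a and cfa-miR-208b had 0 kept features, and cfa-miR-1 and cfa-miR-499 were detected. The summed level of the erythrocyte listings lay between 16.7 and 17.3 in DCM and between 16.9 and 17.2 in the control group, and that of the leukocyte listings between 12.2 and 13.3 and between 12.8 and 13.2. Over the 8 arrays 1 erythrocyte and 1 leukocyte listing were higher in DCM without overlap of the groups, as were 7 of all 438 names. The other detected listings, those of heart and muscle among them, overlapped between the groups. mmu-miR-144 lay between 9.26 and 10.08 in DCM and between 8.04 and 8.98 in control, and mmu-miR-142-3p between 7.33 and 8.34 and between 6.01 and 7.01. Their part in the levels of the names described here was not tested.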

How the data were processed

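The intensity per feature that the authors deposited is the output of Agilent Feature Extraction 10.7.3.1, background-subtracted and not scaled between arrays. A series table repeats it, and other columns hold detection and outlier flags as 0 or 1. A feature was kept when well above background on 2 or more of a group's 4 arrays. Kept features without an outlier flag on an array were averaged per name. The means were calibrated by the vsn model of the methods (quantile 0.9, 5 slices, 7 iterations) in an own implementation, tested on simulated data. All 438 detected names were fitted with limma 3.58.1 (R 4.3.3), without covariates, over the 7 arrays without DoCM8, which the study left out. A call needed p under 0.05 and a fold change over 1.5, and an adjusted call a Benjamini-Hochberg p under 0.05. Where a group had no array above background, the bound sets the other group's mean against, per array, the higher of the name's own level and the lowest level above background. Permutation tests over the arrays were exact and two-sided.

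Named with values were the names past both limits over the first 7, all 8 or the 7 arrays without DoCM5, the 12 brightest, mmu-miR-1224, mmu-miR-1950, mmu-miR-1957 and mmu-miR-1968, those without overlap of the groups, those with a canine gene of the same number, and those with 1 array far from its group. The names, lists and alternatives were chosen with earlier results of these data known. Alternatives covered the arrays, normalization, background, signal column, averaging, filter, outlier flags and slide column. The paper's numbering of dogs may not match the labels, which were followed here. Precision is limited by the small number of arrays.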

Additional observations from a re-analysis of the deposited data

Results flagged for a closer look

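In 4 of 76 groups of 4 arrays, 1 array lay far from the other 3, where chance at 1 in 20 gives 3.8. The groups cover the normalized levels of the 34 detected names and 4 summaries of detection and signal, in DCM and in the control group.

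mmu-miR-1950 had a level of 1.55 on DoCM5, against -0.06 to 0.18 on the other DCM arrays, from 1 feature that was not above background there. mmu-miR-1964-3p had a level of 1.72 on DoCM7, against 2.13 to 2.19 on the other DCM arrays, all of them not above background.

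mmu-miR-1956 had a level of 3.09 on DoCM6, against 2.44 to 2.50 on the other DCM arrays, and DoCM6 was the DCM array on which it was above background. mmu-miR-1965, measured by 1 of its probes, had a level of 3.03 on Con4, against 4.37 to 4.51 on the other control arrays, and was above background on all of these. Its lowest DCM value was 3.09 on DoCM7.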

How the results depend on the processing

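The number of names of the range past both limits was 0 over the 7 arrays without DoCM8. It was 3 over all 8 arrays and 3 with these weighted by array, 2 without DoCM5 in place of DoCM8, 3 with each array scaled to its 75th percentile over the names detected on all arrays or over all names, 2 with quantile normalization, 1 without a filter on dim features and 1 with the slide column as a block. Leaving out single arrays gave 0 to 3. The names that passed in these settings were lower in DCM. The filter favours this for mmu-miR-1950 and mmu-miR-1968, which did not pass without it, while the call without a filter was mmu-miR-1964-3p. Over all names the count was 12. It was 19 without DoCM5 in place of DoCM8, 34 with weighted arrays, 2 with normexp correction and quantile normalization, 44 of 1224 without the filter, 7 of 349 with at least 50% of the features kept, and 10 to 30 when single arrays were left out. It was 13 and 11 with the 75th percentile over the names detected on all arrays and over all names, 12 with quantile normalization, 18 over all 8 arrays and 13 with the slide column as a block. The number of the range past the adjusted limit was 0 in all 21 settings. The number detected was 34. It was 89 where 1 array of a group was enough, with 987 over all names, and 31 to 34 without single arrays. The other detection settings gave 26 to 34, among them 33 with outlier features taken as not above background, which was chosen after seeing the data. The causes were not tested. The replicate numbers pair no arrays (5 to 8 in DCM, 1 to 4 in control), and the slide column, shared by 1 DCM and 1 control array, is the block given above. The number of the 12 brightest names that were lowest on DoCM5 was 11, and 1 on the signal not scaled between arrays, which was chosen after seeing the data.

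Names that passed in some settings were mmu-miR-1950 and mmu-miR-1968 (8 settings each), mmu-miR-1964-3p (4), mmu-miR-1957 (2), and mmu-miR-1224, mmu-miR-1892 and mmu-miR-1906 (1 each). The log2 fold change of mmu-miR-1957 ran from -0.80 to -0.10 and that of mmu-miR-1964-3p from -1.22 to -0.06 over the settings. That of mmu-miR-1187, which passed in no setting, ran from -0.06 to 0.56.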
